A study of Arabidopsis thaliana with 27 samples.

Results

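AUR1 (AT4G32830) and AUR2 (AT2G25880) are the alpha-class Aurora kinases of Arabidopsis thaliana. They were taken as the genes that the platform annotation pairs with a probe set of their own under these names. That gave 2 of the 13354 genes with such a probe set, with 1 probe set each and none shared with another gene. AUR3 (AT2G45490), the beta-class kinase of the family, also has 1 probe set and is given beside them.

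Aurora kinases are serine/threonine kinases that act during mitosis. In Arabidopsis, AUR1 and AUR2 locate to spindle microtubules and the forming cell plate and help to orient division planes, while AUR3 locates to centromeres. All of the family phosphorylate histone H3, and their transcripts build up around the entry into mitosis, so that they serve as markers of dividing plant cells.

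Gene expression was followed while cells of a habituated Col-0 suspension culture, one that grows without added hormone, formed tracheary elements, the dead water-conducting cells of xylem. In every group, cells 7 days old had been moved to fresh MS medium with B5 vitamins, 3% sucrose, the auxin NAA at 6 µg/ml, the cytokinin BAP at 1 µg/ml and epibrassinolides, which are brassinosteroids, at 4 µM. The 3 time-courses A, B and C, described as independent, were each harvested 9 times, at 12 h intervals up to 96 h, and every one of the 27 RNA samples has a single-colour array. The labels describe actively dividing cells at 0 h, and a loss of division with the start of expansion at 12 h and 24 h. They place the initial step of differentiation at 36 h, a stage before secondary wall deposition at 48 h, its start at 60 h and its progress at 72 h and 84 h. For 96 h they name completed walls and preparation for cell death. In cultures of this kind only part of the cells become tracheary elements. A culture moved to medium without hormones was not analysed here, so the effects of fresh medium and of hormones cannot be told apart.

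The values were taken as log2 signals from their range, as no source states the log base. Array medians lay between 0.86 and 1.00 and the highest value was about 12. On that reading a difference of 1 is a 2-fold difference, and the folds given below rest on it. Probe sets on which a comparison had a Benjamini-Hochberg adjusted p under 0.05 in limma are said to be called, and n is 3 arrays per time throughout. Where arrays of 2 times are said not to overlap, the share of all probe sets without overlap was not counted. As a sign of RNA quality, the GAPDH control signal of the 3′ probe set minus that of the 5′ probe set, which is larger in degraded RNA, ranged from 2.99 to 4.38 on 5 arrays and from 0.35 to 1.89 on the remaining 22. The 5 arrays belong to time-course B, at 0 h and at each time from 60 h. Of the 4 measured markers of tracheary elements on an 18-gene list, 0 were called at 12 h against 0 h (0 at an unadjusted p under 0.05), where 8.48% of all probe sets were higher and 8.67% lower. At 60 h all 4 were higher, as were 5.36% of all probe sets.

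AUR1 and AUR2 dropped sharply within 12 h of the transfer and came back during the following day. AUR1 in time-course A gave 5.44, 1.76, 3.79, 4.34, 4.85, 5.14, 5.74, 5.58 and 4.97 at 0, 12, 24, 36, 48, 60, 72, 84 and 96 h. In time-course B it gave 4.65, 2.04, 3.71, 5.20, 4.97, 3.90, 5.50, 5.05 and 5.10 at the same times. In time-course C it gave 5.51, 1.75, 4.38, 5.47, 5.04, 4.15, 5.55, 5.51 and 5.27. The 12 h array was the lowest of its time-course in A, B and C, and the 72 h array was the highest in each. The 3 arrays at 12 h did not overlap those of any other time.

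AUR2, the close relative of AUR1, was also lowest at 12 h. In time-course A it gave 5.10, 2.21, 3.91, 4.34, 4.74, 4.81, 5.40, 5.08 and 4.94 from 0 h to 96 h. In time-course B it gave 4.53, 1.81, 3.44, 4.70, 4.61, 3.1, 5.0, 4.71 and 4.75. In time-course C it gave 4.55, 1.57, 3.61, 4.39, 4.29, 4.45, 5.26, 5.49 and 5.26. The 12 h array was the lowest in A, B and C. The highest was the 72 h array in A and B and the 84 h array in C, and the 60 h array of B lay below all other arrays after 12 h.

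**Figure D1:**
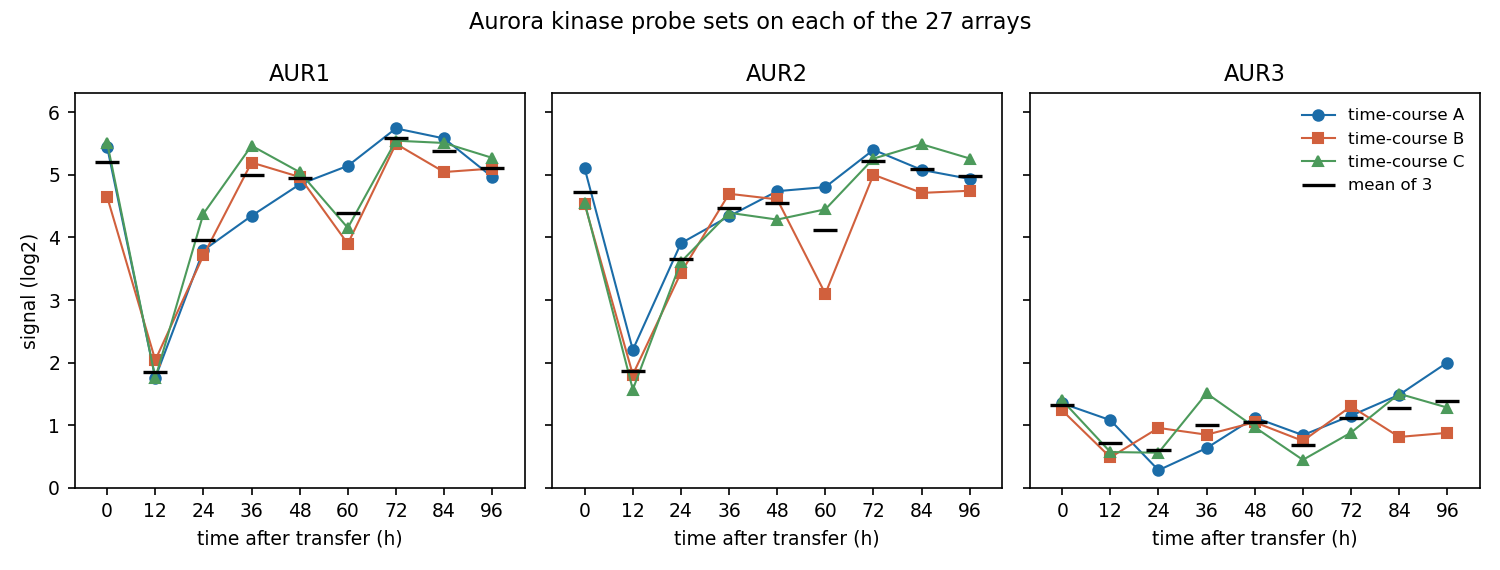
Log2 signal of the AUR1, AUR2 and AUR3 probe sets against time after transfer in h, with 1 line and marker per time-course and a black bar for the mean of 3 arrays. AUR1 and AUR2 lie between 1.57 and 2.21 on the 12 h arrays and at 3.1 or more on every other array, while AUR3 stays between 0.28 and 2.0 throughout.

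AUR3 stayed low at all times, between 0.28 and 2.0 with a median of 0.97, which is close to the array medians. Its 0 h arrays gave 1.35, 1.24 and 1.40. It was 0.61 lower at 12 h (SE 0.26, adjusted p = 0.127), 0.73 lower at 24 h (adjusted p = 0.0780) and 0.65 lower at 60 h (adjusted p = 0.116), on the log2 scale and against 0 h. AUR3 was not called at any time against 0 h in limma, and it passed an unadjusted p under 0.05 at 12 h, 24 h and 60 h. Signals this near the lower end of the scale leave little room to record a fall.

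Over all 9 times, limma's moderated F test called AUR1 (F = 29.98, adjusted p = 1.04e-07) and AUR2 (F = 22.49, adjusted p = 8.98e-07), and it did not call AUR3 (adjusted p = 0.141). Of all probe sets, 23.1% were called by this test, and by p AUR1 ranked at position 244 and AUR2 at position 387 among the 22743 tested.

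The series compares each time with 0 h, when the cells were labelled as actively dividing. At 12 h, AUR1 averaged 1.85 ± 0.16 against 5.20 ± 0.48 at 0 h (SD, n = 3 each), a log2 difference of -3.35 (SE 0.30, adjusted p = 4.05e-08), or a 10.2-fold lower signal. AUR2 averaged 1.86 ± 0.32 at 12 h against 4.73 ± 0.32 at 0 h, a difference of -2.87 (SE 0.31, adjusted p = 7.43e-07), or 7.30-fold lower. Both genes were lower in 3 of 3 time-courses and the arrays of the 2 times did not overlap. The 12 h signals lay about 1 above the array medians, and a background level was not measured here, so these folds describe the signals and can understate the change. Of all probe sets, 8.67% were lower at 12 h. In samples of mixed cells, fewer cells of a type and less RNA per cell cannot be told apart. The GAPDH difference averaged 0.72 at 12 h and 1.92 at 0 h. With it as a covariate, AUR1 fell by 3.58 and AUR2 fell by 3.16.

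At 24 h the signals were still below those at 0 h. AUR1 averaged 3.96 ± 0.36 at 24 h against 5.20 ± 0.48 at 0 h, a difference of -1.24 (SE 0.30, adjusted p = 0.00668), and AUR2 averaged 3.65 ± 0.24 against 4.73 ± 0.32, a difference of -1.08 (SE 0.31, adjusted p = 0.0240). The arrays of both times did not overlap for either gene. At this time 6.77% of all probe sets were lower. These calls are less secure than those at 12 h. Without time-course C neither gene was called (adjusted p = 0.124 for AUR1 and 0.232 for AUR2), and with the 6 arrays of the 2 times alone AUR1 was not (adjusted p = 0.0572). AUR2 was also not called without time-course A (adjusted p = 0.0955), the 0 h array of A (0.104), the 24 h array of B (0.0904) or the 24 h array of C (0.0720).

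From 36 h on, limma called neither gene against 0 h at any of 6 times. At an unadjusted p under 0.05, AUR1 passed at 60 h and nothing else did. The percentages of all probe sets called in either direction were 13.5 at 36 h, 11.7 at 48 h, 13.2 at 60 h, 6.57 at 72 h, 6.31 at 84 h and 4.51 at 96 h. For AUR1 the difference from 0 h was -0.20 at 36 h (95% interval -0.82 to 0.42), -0.25 at 48 h (-0.87 to 0.37), 0.39 at 72 h (-0.22 to 1.01), 0.18 at 84 h (-0.44 to 0.79) and -0.09 at 96 h (-0.71 to 0.53). For AUR2 it was -0.25 at 36 h (-0.90 to 0.39), -0.18 at 48 h (-0.83 to 0.46), 0.49 at 72 h (-0.15 to 1.14), 0.36 at 84 h (-0.28 to 1.01) and 0.25 at 96 h (-0.39 to 0.90). These intervals leave room for differences of up to about 1 in either direction. At 60 h, treated below, the interval was -1.42 to -0.19 for AUR1 and -1.25 to 0.03 for AUR2. With the GAPDH difference as a covariate, AUR1 differed from 0 h by -0.42 at 36 h, -0.43 at 48 h and 0.38 at 72 h. AUR2 differed by -0.53, -0.41 and 0.48 at these times, and none of these was called. At 60 h this limma fit called AUR1 (-0.76, adjusted p = 0.0337) and did not call AUR2 (-0.55, adjusted p = 0.0879). At 84 h and 96 h it called neither gene.

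**Figure D2:**
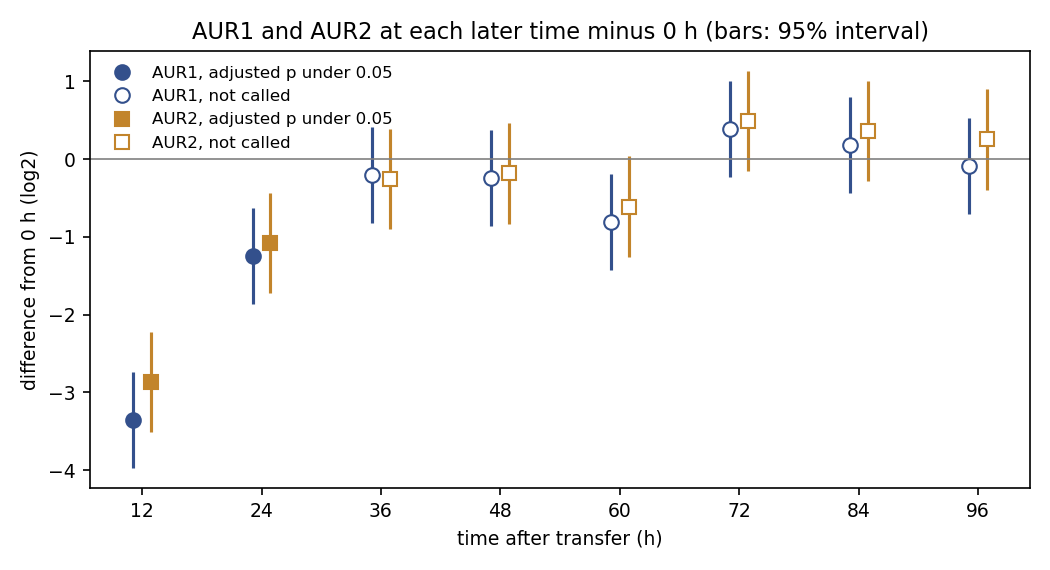
Log2 difference of AUR1 (circles) and AUR2 (squares) between each later time, in h, and 0 h, with 95% intervals from limma as bars. Filled symbols have an adjusted p under 0.05: both genes are called at 12 h and 24 h and neither is at the 6 later times.

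Set against the previous time, the return began between 12 h and 24 h. AUR1 was 2.11 higher at 24 h than at 12 h (SE 0.30, adjusted p = 2.78e-05) and AUR2 was 1.79 higher (SE 0.31, adjusted p = 3.16e-04). Both differences ran the same way in 3 of 3 time-courses, and 5.31% of all probe sets were higher in this step. Without time-course C the adjusted p for AUR2 was 0.0591. Between 36 h and 24 h the differences were 1.04 for AUR1 (adjusted p = 0.405) and 0.83 for AUR2 (adjusted p = 0.690), and 0.132% of all probe sets were called. AUR1 was higher in 3 of 3 time-courses, as was AUR2, and without time-course A AUR1 was called (1.29, adjusted p = 0.0440). In that fit 311 of all probe sets were called, against 30 with all arrays.

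All 6 times from 36 h to 96 h lay above 12 h for both genes, in 3 of 3 time-courses and without overlap. For AUR1 the differences from 12 h were 3.15 at 36 h, 3.1 at 48 h, 2.55 at 60 h, 3.74 at 72 h, 3.53 at 84 h and 3.26 at 96 h (SE 0.30 each). For AUR2 they were 2.62 at 36 h, 2.68 at 48 h, 2.26 at 60 h, 3.36 at 72 h, 3.23 at 84 h and 3.12 at 96 h (SE 0.31 each). Of all probe sets, 6.24% at 36 h, 6.6% at 48 h, 7.32% at 60 h, 6.42% at 72 h, 6.32% at 84 h and 6.56% at 96 h were higher than at 12 h. The 72 h means, 5.59 ± 0.13 for AUR1 and 5.22 ± 0.20 for AUR2 (SD, n = 3), were the highest of the 9 times. Of the 4 tracheary element markers, 3 were called higher than at 0 h at 72 h, 2 at 84 h and 0 at 96 h (4 at each of these times at an unadjusted p under 0.05). The same was so of 2.35% of all probe sets at 72 h, 2.17% at 84 h and 1.49% at 96 h.

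At 60 h, as secondary wall deposition begins by the labels, the time-courses gave unlike values. AUR1 at 60 h gave 5.14, 3.90 and 4.15 in A, B and C, against 4.85, 4.97 and 5.04 at 48 h. It was therefore lower in B and C and higher in A. AUR2 at 60 h gave 4.81, 3.1 and 4.45, against 4.74, 4.61 and 4.29 at 48 h, and was lower in B alone. Neither step was called (-0.55 with adjusted p = 0.495 for AUR1, -0.43 with adjusted p = 0.612 for AUR2, both unadjusted p over 0.05), and 0.0132% of all probe sets were. The 60 h array of B had the highest GAPDH difference of all, 4.38, against 0.36 in A and 1.77 in C at that time. Without that array the difference between 60 h and 48 h was -0.30 for AUR1 and 0.08 for AUR2, and without the 60 h array of A it was -0.93 for AUR1 and -0.77 for AUR2, none of them called. With the GAPDH difference as a covariate it was -0.33 for AUR1 and -0.14 for AUR2, neither called. On the 5 arrays of B with high GAPDH differences, both genes lay below their time means. At 0, 60, 72, 84 and 96 h, AUR1 deviated by -0.55, -0.50, -0.10, -0.33 and -0.01. AUR2 deviated by -0.20, -1.02, -0.22, -0.38 and -0.23 at these times. On the other arrays of B the deviations ran both ways, and a cause was not tested.

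Against 0 h, AUR1 at 60 h averaged 4.40 ± 0.66 and 5.20 ± 0.48 at 0 h, a difference of -0.80 (SE 0.30, adjusted p = 0.0812). AUR2 averaged 4.12 ± 0.90 at 60 h and 4.73 ± 0.32 at 0 h, a difference of -0.61 (SE 0.31, adjusted p = 0.226). Each was lower in 3 of 3 time-courses, with overlapping arrays. These values depended on single arrays. Without the 60 h array of A both genes were called (-1.18, adjusted p = 0.00680 for AUR1 and -0.95, adjusted p = 0.0435 for AUR2), and without the 60 h array of B the differences were -0.55 and -0.10 and neither was called. The GAPDH difference at 60 h was lowest in A, 0.36, and highest in B, 4.38. Over all probe sets, 3008 were called either way with all arrays, 3272 without the 60 h array of A and 2454 without that of B. AUR1 was also called without time-course A (adjusted p = 0.0223) and without the 0 h array of B (adjusted p = 0.0264).

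At 72 h, AUR1 was 1.20 higher than at 60 h (SE 0.30, adjusted p = 0.0697) and AUR2 was 1.10 higher (SE 0.31, adjusted p = 0.133). Arrays of the 2 times did not overlap for either gene and every time-course was higher at 72 h. Of all probe sets 0.664% were called in this step, and the share without overlap was not counted. With the time-course as a replicate block, AUR1 was called (adjusted p = 0.0457) and AUR2 was not (adjusted p = 0.0534). Without the 60 h array of A both were called (adjusted p = 0.00320 and 0.0123), and AUR1 was called without time-course A (adjusted p = 0.0104). Without the 60 h array of B the differences were 0.95 for AUR1 and 0.59 for AUR2, neither called. Over all probe sets, 151 were called in this step with all arrays and 277 with the replicate block. That number was 622 without the 60 h array of A, 730 without time-course A and 34 without the 60 h array of B. In the steps to 84 h and to 96 h, where 0% of all probe sets were called by limma, the differences of AUR1 were -0.22 and -0.27 and those of AUR2 were -0.13 and -0.11, none with an unadjusted p under 0.05.

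Ordered by mean signal, the times ran for AUR1 as 12 h, 24 h, 60 h, 48 h, 36 h, 96 h, 0 h, 84 h and 72 h from lowest to highest. For AUR2 the order was 12 h, 24 h, 60 h, 36 h, 48 h, 0 h, 96 h, 84 h and 72 h. In both orders the arrays at 12 h did not overlap those of the next time, 24 h. Every other pair of neighbours overlapped in both genes.

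AUR1 and AUR2 moved together from array to array. Their signals correlated with Pearson r = 0.951 and Spearman rho = 0.844 over the 27 arrays. Without the 12 h arrays, over 24 arrays, r was 0.840 and rho 0.778. Within time-courses of 9 arrays r was 0.994 in A, 0.983 in B and 0.921 in C. Deviations from the time means correlated less, with r = 0.512 and rho = 0.396 over 27 arrays. Both genes are read from the same RNA on each array, so these values also hold whatever the array shares, and whether either probe set also binds transcripts of the other gene was not tested.

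The changes of the 2 genes from 0 h were set against each other by an exact two-sided permutation test of the AUR1 minus AUR2 difference on each array, which with 3 arrays against 3 cannot go below p = 0.1. At 12 h, AUR1 had changed by 0.49 more than AUR2 in the downward direction (-0.49, SE 0.33, exact p = 0.3), with -0.79 in A, 0.11 in B and -0.78 in C. At the 7 other times the difference lay between -0.34 and 0.05. All 8 p-values were 0.9 after Benjamini-Hochberg adjustment. This test could not reach a p under 0.05 for a difference of any size and does not use the pairing of the arrays, so it does not show that the genes respond alike.

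**Figure D3:**
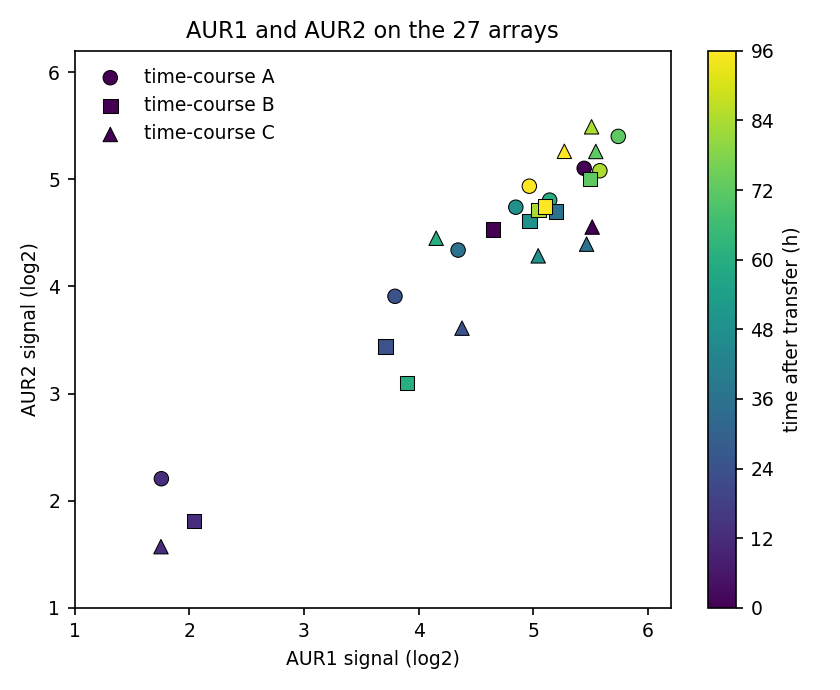
Log2 signal of AUR2 against that of AUR1 on each of the 27 arrays, with the marker for the time-course and the colour for the time after transfer in h. The 3 arrays at 12 h lie apart at the lower left, and r over the other 24 is 0.840.

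The comparison was extended to genes of mitosis, cytokinesis, cell cycle control and DNA replication, with histones. They stand on 9 further lists, called division lists here, of which 7 had measured members. Of 31 such genes besides the Aurora kinases, 16 were lower and 0 higher at 12 h than at 0 h in limma (22 lower and 1 higher at an unadjusted p under 0.05), or 51.6% lower, against 8.67% lower and 8.48% higher of all probe sets. Their median difference was -0.92, against 0.00 over all probe sets. None of 22 mitotic cyclins and cyclin-dependent kinases and none of 10 G1 cyclins on the lists had a probe set of its own in the annotation used here. The count of 16 depends on single arrays and on whole time-courses. It was 9 without the 0 h array of A, 8 without the 12 h array of C and 3 without time-course C. Over all probe sets, 3900 were called either way with all arrays. That number was 3608 without the 0 h array of A, 3148 without the 12 h array of C and 1563 without time-course C.

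Among partners and spindle genes, 1 of 4 was lower at 12 h, AT2G28620 (-1.55, SE 0.39, adjusted p = 0.00650). WYR, the INCENP-like protein that anchors Aurora kinases in the chromosomal passenger complex, had a difference of -0.27 (adjusted p = 0.495) from signals near the floor, 0.11 at 12 h and 0.38 at 0 h. Haspin, another histone H3 kinase of mitosis, had -0.53 (adjusted p = 0.0826). Neither was called, and both started low. WYR and Haspin are named outside the rule for names given below. The remaining measured gene of this list, AT4G22860, was not called either.

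Of 7 kinetochore, checkpoint and anaphase genes 5 were lower. UBC20, a ubiquitin-conjugating enzyme of the class that works with the anaphase-promoting complex, fell by 2.52 (SE 0.36, adjusted p = 2.56e-05). BUB3.1 (-1.42) and BUBR1 (-0.96), proteins of the spindle checkpoint, also fell, as did AT3G48210 (-1.17).

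Of 6 condensin and mitotic chromosome genes 3 were lower. The largest difference of the lists was that of 3xHMG-box2, an HMG-box protein that binds condensed chromosomes (-4.18, SE 0.55). TOPII, DNA topoisomerase II, fell by 2.49 and AT3G57060 by 0.82.

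Of 3 phragmoplast genes 2 were lower, KINESIN-12B (-1.02), a motor of the phragmoplast, and KEU (-0.94), which acts in membrane fusion at the cell plate. Of 3 regulators, TSO1 (-1.62), a CXC-domain protein that controls division in meristems, and AT1G63100 (-1.24) fell. In the DNA replication list 1 of 4 was lower, PRL (-1.13), the MCM7 subunit of the replicative helicase. Of 4 measured histone genes, all encoding H2B, HTB2 (-1.40) and HTB4 (-0.38) fell. Across the 18 alternatives tried, AT3G57060 lost its call in 14, KEU and KINESIN-12B in 10 each, BUBR1 in 9, and HTB4 and AT1G63100 in 8 each, against 0 for UBC20, TOPII and 3xHMG-box2. Only 3xHMG-box2 had a difference larger in size than that of AUR1 among these 31.

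**Figure D4:**
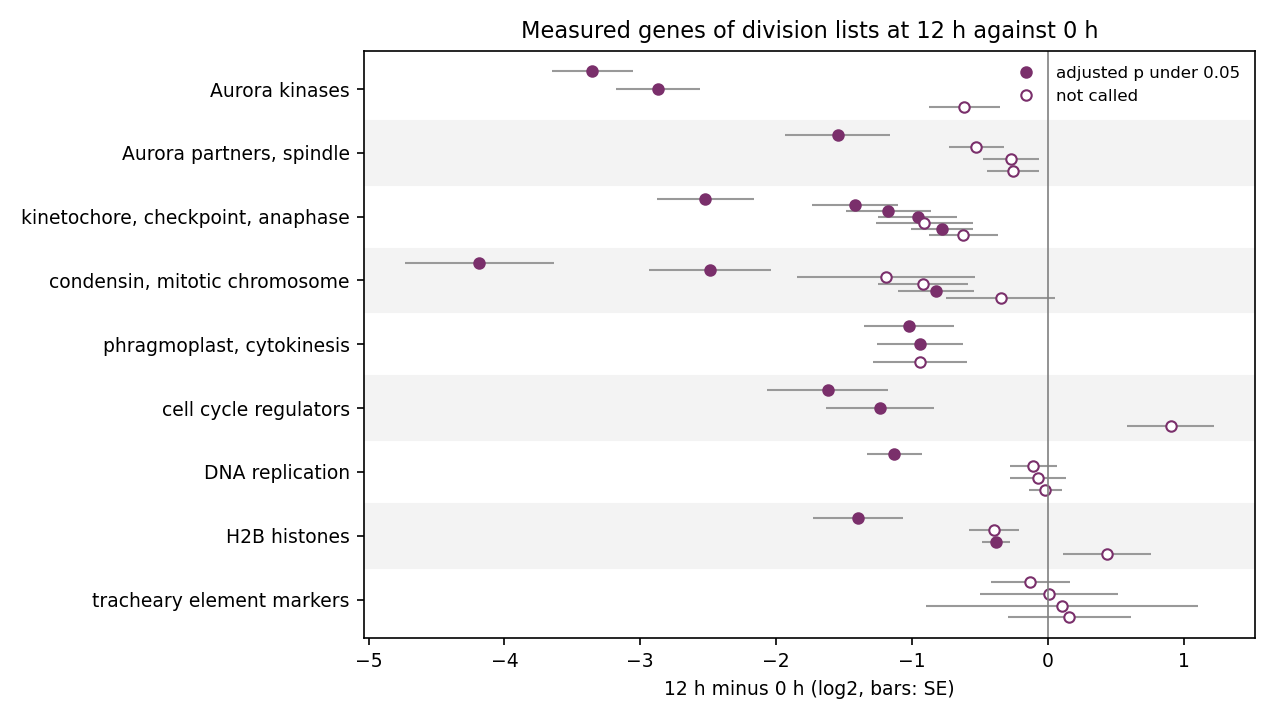
Log2 difference between 12 h and 0 h for each measured gene of the Aurora family, 7 division lists and the tracheary element markers, with standard errors as bars and filled circles for an adjusted p under 0.05. Of the 31 division genes below the Aurora row, 16 are filled, all left of 0, and none of the 4 tracheary element markers is.

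The same 31 genes were followed to the later times. At 24 h, 3 of the 31 were lower and 2 higher than at 0 h (8 and 3 at an unadjusted p under 0.05; 5 lower with the time-course as a replicate block, 1 lower without time-course A or without the 24 h array of A, 6 without B and 0 without C). The lower ones were BUBR1 (-0.89), UBC19 (-1.57) and 3xHMG-box2 (-2.12), and PRL was among the higher (0.67), while 6.77% of all probe sets were lower and 5.44% higher. Over all probe sets, 2776 were called either way at 24 h with all arrays and 3956 with the replicate block. That number was 3021 without time-course A, 2115 without the 24 h array of A, 1753 without B and 777 without C. Of the 31 genes, the number lower was 3 at 36 h, 3 at 48 h, 1 at 60 h and 0 at 72 h, 84 h and 96 h (8, 8, 6, 0, 1 and 1 at an unadjusted p under 0.05, in the same order). Of all probe sets, 7.55% were lower at 36 h, 6.71% at 48 h, 7.86% at 60 h, 4.22% at 72 h, 4.14% at 84 h and 3.01% at 96 h. From 12 h to 36 h, over which AUR1 and AUR2 both rose, 8 of the 31 were higher and 0 lower (12 and 0 unadjusted), with a median of 0.28, against 6.24% of all probe sets higher and 7.85% lower. 3xHMG-box2 was still called at 36 h (-1.66) and 48 h (-1.77), times at which AUR1 and AUR2 were not. Whether its course differed from theirs was not tested. UBC19 was named here after its values were seen.

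To find the genes with the most similar course, the mean of AUR1 and AUR2 was correlated over the 27 arrays with each of 3370 genes whose time means spanned at least 1. The median r was 0.01, and 73 genes had r above 0.8. The 10 highest were UBC20 (0.964), AT3G12870 (0.959), AT5G66230 (0.953), AT3G02640 (0.951), AT3G02120 (0.950), AT5G16250 (0.945), AT2G04000 (0.935), AT3G42725 (0.921), AT1G61450 (0.912) and AT2G19970 (0.909). The next gene had 0.906. Of the 10, UBC20 is on the division lists. With Spearman's rho 6 of the same 10 remained among the highest 10, with the 9 time means 4, without time-course A or B 6, and without C 9.

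UBC20 averaged 3.19 ± 0.32 at 12 h against 5.71 ± 0.81 at 0 h, then 4.99 ± 0.23 at 24 h, 5.08 ± 0.82 at 60 h and 6.26 ± 0.18 at 72 h (SD, n = 3). Like AUR1 and AUR2, all 10 genes had their lowest mean at 12 h, from 1.26 to 3.92 below 0 h. All 10 also had a lower mean at 60 h than at 48 h and a higher one at 72 h than at 60 h. These genes were chosen by likeness on the same arrays, so their patterns are not separate evidence for those of AUR1 and AUR2. The share of the 3370 compared genes with these patterns was not counted. Their 60 h means include the array of B with the highest GAPDH difference, 4.38. The 3 genes with the lowest r were AT1G71140 (-0.914), AT5G62620 (-0.911) and AT3G26470 (-0.910), and each had its highest mean at 12 h.

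**Figure D5:**
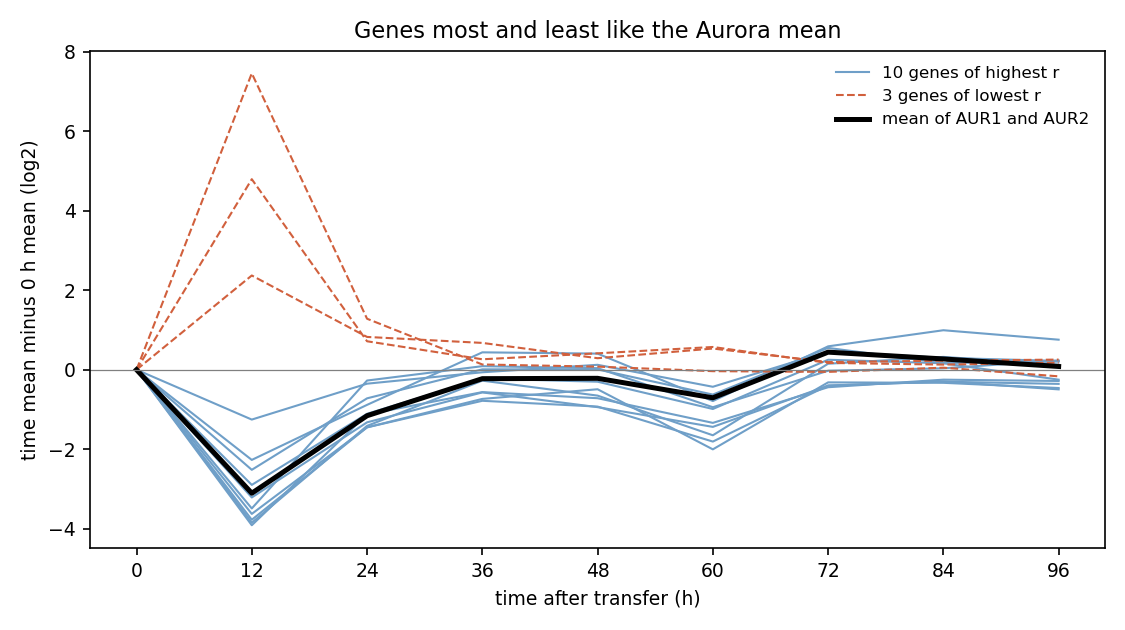
Time means minus the 0 h mean, in log2 units, against time after transfer in h, for the mean of AUR1 and AUR2 (black), the 10 genes of highest r (solid blue) and the 3 of lowest r (dashed red). All 10 are lowest at 12 h and have a lower mean at 60 h than at 48 h, while the 3 peak at 12 h. The genes were chosen by r on these same arrays.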

How the data were processed

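The deposited table holds the authors' log2 signals from RMA (background correction, normalization between arrays and 1 value per probe set), per the submitters' processing notes. For RMA a version is not given in the sources used here. No source states the log base, and base 2 was chosen because the signals end near 12. Low signals stop at a floor of 0, so changes that end there are understated. Of 22810 probe sets, 22743 were tested, after removing 64 controls and 3 that lack a value on some array. The annotation at hand names 1 gene for 13513 probe sets, and 8729 tested probe sets are unnamed here. A gene with several probe sets was read from the one with the highest mean. No genome build is given, so no coordinates are printed.

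Arrays were assigned to times and time-courses by their titles. The limma model had 1 mean for each time over the 27 arrays (3.58.1, lmFit, contrasts and eBayes, in R 4.3.3). P-values were adjusted by the Benjamini-Hochberg method over all probe sets within each comparison and called under 0.05. Exact permutation tests used SciPy 1.17.1. Correlations are descriptions without a test. The fit was checked on simulated data with independent noise on each array. Those data had no time-course effect and no floor at 0, so the check does not cover these features. The number of arrays, 3 per time, limits precision.

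The genes, lists and tests were chosen with earlier results of these data known. The rule for names took AUR1, AUR2 and AUR3, and from each list the members called at 12 h against 0 h, at most the 4 with the largest change (the 2 largest where none was called). It also took the 10 genes most like the Aurora mean and the 3 least like it. The 11 lists hold 195 entries, of which 38 were measured. Where the annotation gives a locus alone, the locus is printed.

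Samples of the same letter are paired, since the design describes 3 time-courses. The main fit did not use this pairing, which entered only in the replicate block among the alternatives. As a check, array deviations around the time means correlated with a median r of 0.246 in the 108 same-letter pairs and -0.12 in the 216 pairs of other letter and time. Alternatives were the replicate block, median centring, quantile normalization, a filter on low means, array weights, another variance prior, the GAPDH difference as a covariate, low values raised to 1, the 6 arrays compared alone, and each array and each time-course left out.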

Additional observations from a re-analysis of the deposited data

How the results depend on the processing

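In all 18 alternatives tried for each, the calls for AUR1 and AUR2 at 12 h against 0 h held (AUR1 -3.73 to -3.15, AUR2 -3.16 to -2.68), as did those from 36 h to 96 h against 12 h and AUR1 at 24 h against 12 h. AUR1 at 24 h against 0 h lost its call with the 6 arrays alone (-1.24) and without time-course C, over a leave-out range of -1.52 to -1.04. AUR2 there ranged from -1.21 to -0.89 over leave-outs, with 5 calls lost, and AUR2 at 24 h against 12 h from 1.64 to 1.96, with 1 lost. AUR1 at 60 h against 0 h was called with array weights (-1.0) and the GAPDH covariate (-0.76), and ranged from -1.18 to -0.53 over leave-outs. AUR2 there ranged from -0.95 to -0.10. AUR1 at 72 h against 60 h was called with the replicate block (1.20), with the filter on a mean of 1 (1.20), with array weights (1.28) and with the GAPDH covariate (1.14), and ranged from 0.95 to 1.57 over leave-outs. AUR2 there was called with the GAPDH covariate (1.03) and ranged from 0.59 to 1.45. The replicate block changed no other call of the 2 genes. AUR1 at 36 h against 24 h ranged from 0.81 to 1.37 over leave-outs, and at 60 h against 48 h from -0.98 to -0.30 without being called.

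Signs turned over leave-outs for uncalled differences alone. They ranged from -0.57 to 0.25 (AUR1, 36 h against 0 h), -0.10 to 0.34 (AUR1, 84 h), -0.37 to 0.10 (AUR1, 96 h), -0.46 to 0.0035 (AUR2, 36 h), -0.32 to 0.0019 (AUR2, 48 h), and -0.77 to 0.12 (AUR2, 60 h against 48 h). The number of division genes lower was 9 with the 6 arrays alone at 12 h and 5 with the replicate block at 24 h, and over leave-outs 3 to 14 at 12 h and 0 to 6 at 24 h. Of 18 other named results, 5 kept their call in every alternative and 13 lost it in some, 74 times in 324, with no sign turned. Causes of these shifts were not tested. Fits that leave out a time-course have 2 arrays per time.

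The number of all probe sets called, with all arrays and as a range over the alternatives, was 3900 (1563 to 5069) at 12 h against 0 h, 2776 (777 to 4248) at 24 h, 3075 (843 to 4295) at 36 h, 2660 (678 to 4032) at 48 h, 3008 (776 to 3928) at 60 h, 1494 (256 to 2570) at 72 h, 1434 (234 to 2833) at 84 h and 1025 (31 to 1677) at 96 h. It was 2866 (1020 to 4721) for 24 h against 12 h, 30 (3 to 311) for 36 h against 24 h, 3 (0 to 529) for 60 h against 48 h, 151 (0 to 730) for 72 h against 60 h and 3205 (1252 to 4733) for 36 h against 12 h. The percentages of all probe sets given beside the Aurora calls shift with these counts.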

Other observations

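SIM (AT5G04470), an inhibitor of cyclin-dependent kinases that promotes endoreplication in trichomes, was picked out after its values were seen, and whether its course differed from those of AUR1 and AUR2 was not tested. It was 0.90 higher at 12 h than at 0 h without being called (adjusted p = 0.0598). It was called higher at all later times, by 1.06 at 24 h, 1.95 at 36 h, 2.48 at 48 h, 3.16 at 60 h, 2.67 at 72 h, 2.20 at 84 h and 1.96 at 96 h (SE 0.32 each). Its correlation with the Aurora mean over the 27 arrays was 0.325. The markers GUT2, a xylan synthase component of secondary walls, and IRX15, which acts in xylan deposition, were 1.57 and 2.65 higher at 60 h than at 0 h, and 1.79 and 2.73 higher at 72 h, when the AUR1 and AUR2 means were highest.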
